A study of Aspergillus nidulans FGSC A4 with 21 samples.

Results

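Cytochrome P450 monooxygenases (CYPs) are haem enzymes that insert 1 atom of molecular oxygen into a substrate, with electrons passed from NADPH by a reductase. Filamentous fungi carry many of them, and they serve sterol synthesis, fatty acid hydroxylation, the making of secondary metabolites and pigments, and the first oxidation of foreign aromatic compounds. Benzo(a)pyrene (BaP) is a polycyclic aromatic hydrocarbon whose ring oxidation in animals and fungi is a P450 reaction.

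Described here are 8 CYP genes of *Aspergillus nidulans* outside the sterigmatocystin cluster, *CYP505A8*, *CYP663A1*, *CYP687A1*, *CYP650B1*, *CYP5080D1*, *CYP620D1*, *CYP630B3P* and *ivoC*, out of 2403 genes listed in the deposited tables. The 8 genes were taken by symbol from tables that hold only genes the authors had called differentially expressed between BaP and DMSO. They were therefore chosen by the same BaP contrast that is described below, and their differences are given as a description with no test. The direction of each difference and the separation of the groups are partly fixed by that selection.

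All samples were hyphae of strain FGSC A4, germinated from spores for 18 h in minimal medium with 1% glucose. The hyphae were then moved to medium with 0.1% glucose that held either 200 μM BaP dissolved in DMSO or DMSO alone. Low glucose and DMSO were thus common to both groups, and 3 samples were taken of each treatment at 6, 24 and 48 h, which gave 18 libraries of polyadenylated RNA. The labels name the 3 samples of a group as replicates and say no more on how they were separated. The 3 untreated samples taken at the start are not analysed here. Samples held mycelium, so fewer expressing cells and less RNA per cell cannot be told apart.

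Library sizes recovered from the values ranged from 5.97 to 13.71 M reads (M, mega). The DMSO libraries were all larger than the BaP ones at 6 and 48 h, where size and treatment cannot be told apart. Some libraries lay towards the other group over many genes. At 6 h D20 was the DMSO library nearest the BaP group for 69.1% of the listed genes. At 24 h the BaP library named B23 was the BaP library nearest the DMSO group for 79.6% of the listed genes, and D26 the DMSO library nearest the BaP group for 81.4%. At 48 h D33 was the DMSO library nearest the BaP group for 89.1% of the listed genes.

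Of the 703 genes listed at 6 h, 5 were among the 8 CYPs, of the 1503 at 24 h, 6, and of the 1529 at 48 h, 2. *CYP505A8* was listed at all 3 times, *CYP687A1* and *CYP5080D1* at 6 and 24 h, and *CYP650B1* at 6 and 48 h. *CYP663A1*, *CYP620D1* and *CYP630B3P* were listed at 24 h alone and *ivoC* at 6 h alone. This gave 13 combinations of gene and time, of which 9 were higher and 4 lower in BaP-treated cells. At 6 h, 4 of the 5 CYPs were higher with BaP, beside 535 of all 703 listed genes. The 24-h counts were 4 of 6 CYPs and 748 of 1503 listed genes. Those for 48 h were 1 of 2 CYPs and 756 of 1529 listed genes. No test was made on these counts. Levels are RPKM, which is reads scaled to transcript length in kilobases and to library size in M reads, and are given as mean ± SD with n = 3. Differences are BaP minus DMSO on the log2(RPKM + 1) scale from a linear fit over every listed gene, each with its standard error (SE).

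**Figure D1:**
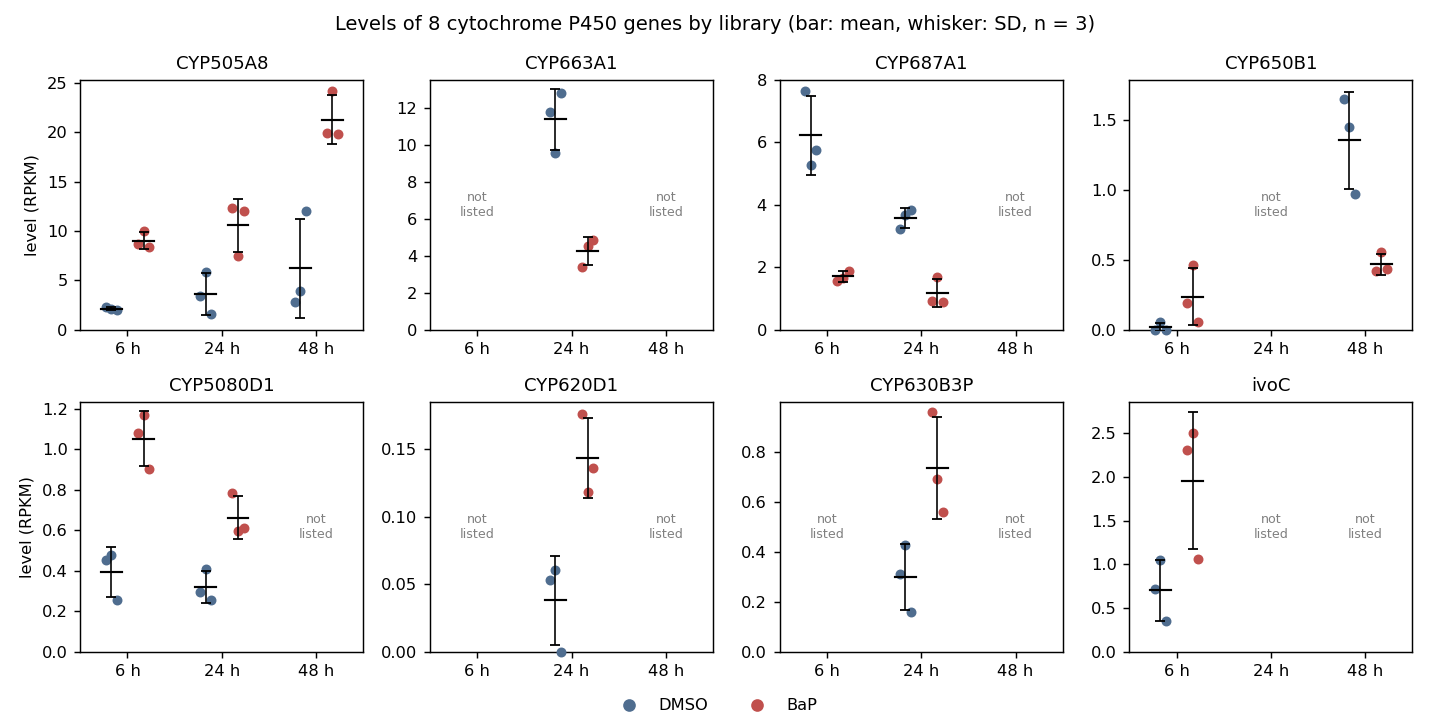
RPKM of the 8 CYP genes (vertical axes, one scale per gene) in each BaP and DMSO library at 6, 24 and 48 h, with bars at the mean and whiskers of 1 SD over 3 libraries. *CYP505A8* reached 21.3 RPKM with BaP at 48 h, while *CYP620D1*, listed at 24 h alone, had 0.176 RPKM in its highest library.

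The number of CYPs with a difference of more than 1 depended on the value added before taking logs. With 0.1 added in place of 1, in either direction, all 5 passed at 6 h, 4 of 6 passed at 24 h and both passed at 48 h. The share of all listed genes past 1 is not given here for 0.1 added or for voom. With limma's voom on the recovered reads the numbers were 5, 6 and 2. The study counted genes as differentially expressed only past a log2 fold change of 1 in either direction. These numbers were thus largely set by that selection and describe no trait of the CYPs. With 1 added, at 6 h, 1 of 5 was higher by more than 1 (*CYP505A8*), against 63.6% of all genes listed at that time, and 1 of 5 was lower by more than 1 (*CYP687A1*), against 10.4%. At 24 h, 1 of 6 was higher by more than 1 (*CYP505A8*), against 42.4%, and 2 of 6 were lower (*CYP663A1* and *CYP687A1*), against 32.7%. At 48 h, 1 of 2 was higher by more than 1 (*CYP505A8*), against 40.9%, and 0 of 2 were lower, against 43.0%. The median difference was 0.56 over the 5 CYPs and 1.13 over all listed genes at 6 h. It was 0.24 over the 6 CYPs and -0.19 over all at 24 h. At 48 h it was 0.58 over the 2 CYPs and -0.56 over all. BaP and DMSO libraries did not overlap in any of the 13 combinations, as was the case for 99.3% of the listed genes at 6 h, 93.7% at 24 h and 99.7% at 48 h. The genes were listed for this contrast, so nothing is read from these shares. The members nearest the limit of 1 were *CYP687A1* at 24 h, at -1.09, and *ivoC* at 6 h, at 0.78.

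*CYP505A8* (AN6835, chromosome I, 3333782 to 3337262, minus strand) had the highest BaP level of those of the 8 genes listed at each of the 3 times. The tables give chromosome positions without naming a genome build. CYP505 enzymes, known from P450foxy of *Fusarium oxysporum*, carry the P450 and its reductase in a single polypeptide and hydroxylate fatty acids below the chain end. The table's annotation calls the *A. nidulans* gene a putative P450 whose expression rises after exposure to farnesol. Its transcript length of 3370 bases was the longest of the 8, the others ranging from 1248 to 2003 bases.

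At 6 h *CYP505A8* measured 8.69, 10.0 and 8.35 RPKM in the BaP libraries and 2.27, 2.13 and 2.01 RPKM in the DMSO libraries. The 6 values formed narrow groups that lay far apart, with means of 9.02 ± 0.875 and 2.14 ± 0.132 RPKM, a ratio of 4.22 and a log2 difference of 1.67 (SE 0.16). With libraries scaled to a median log2 ratio of 0 over the listed genes, the *CYP505A8* difference was 0.66 and the median of all listed genes went from 1.13 to 0.01. At 24 h it measured 12.3, 7.49 and 12.0 RPKM with BaP and 3.38, 5.88 and 1.56 RPKM with DMSO. The groups came closer through 1 library on each side, the same B23 and D26 that lay towards the other group over most listed genes. The means were 10.6 ± 2.68 and 3.61 ± 2.17 RPKM and the log2 difference was 1.41 (SE 0.40), which became 1.62 without B23, 1.76 without D26 and 1.05 without D27.

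At 48 h *CYP505A8* measured 19.9, 24.2 and 19.8 RPKM with BaP and 2.82, 3.91 and 12.0 RPKM with DMSO. The DMSO group was spread widely because of D33, which alone held 12.0 RPKM and still lay under every BaP library. The means were 21.3 ± 2.54 and 6.25 ± 5.02 RPKM with a log2 difference of 1.83 (SE 0.41), or 2.36 without D33. From 6 to 24 to 48 h the mean level went from 9.02 to 10.6 to 21.3 RPKM with BaP and from 2.14 to 3.61 to 6.25 RPKM with DMSO. These levels come from separate tables whose deposited mean expression was offset from the recovered reads by 0.145, 0.016 and -0.061 on the log2 scale at 6, 24 and 48 h, so the times are set side by side with no test. Between 64 and 554 reads stood behind each *CYP505A8* value.

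*CYP663A1* (AN7399, chromosome IV, 73574 to 75630, plus strand) is a putative P450 of no stated function. It was lower in BaP-treated cells. At 24 h it measured 3.41, 4.55 and 4.83 RPKM with BaP and 11.8, 9.57 and 12.8 RPKM with DMSO. The highest BaP library thus lay well under the lowest DMSO library. The means were 4.27 ± 0.752 and 11.4 ± 1.67 RPKM, the DMSO level was 2.67 times the BaP level, and the log2 difference was -1.24 (SE 0.25). Leaving out each library in turn gave -1.35 to -1.11, and 65 to 312 reads stood behind each value.

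*CYP687A1* (AN11220, chromosome VIII, 318369 to 319962, minus strand), another putative P450 without a stated role, was lower in BaP-treated cells at both times at which it was listed. At 6 h it measured 1.55, 1.67 and 1.89 RPKM with BaP and 7.66, 5.28 and 5.75 RPKM with DMSO. The BaP libraries were close together and the DMSO libraries more spread, with means of 1.71 ± 0.172 and 6.23 ± 1.26 RPKM and a log2 difference of -1.41 (SE 0.17). At 24 h it measured 0.927, 1.70 and 0.883 RPKM with BaP and 3.22, 3.66 and 3.83 RPKM with DMSO. B23 was again the BaP library nearest the DMSO group, and the log2 difference was -1.09 (SE 0.25) from means of 1.17 ± 0.459 and 3.57 ± 0.316 RPKM. The DMSO level was 3.65 times the BaP level at 6 h and 3.05 times at 24 h. Counting error was larger here than for the genes above, with as few as 9 reads in 1 library at 24 h and at most 131 reads in 1 library at 6 h.

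*CYP650B1* (AN9248, also *ausG*, chromosome VIII, 57146 to 58996, minus strand) is annotated as required for the meroterpenoids austinol and dehydroaustinol. It was the 1 gene of the 8 whose difference had opposite signs at its times. At 6 h the BaP libraries held 3, 7 and 1 reads, or 0.192, 0.460 and 0.0571 RPKM, and the DMSO libraries held 0, 1 and 0 reads, or 0, 0.0538 and 0 RPKM. The whole comparison thus rested on 11 reads against 1, and the lowest BaP library and the highest DMSO library had 1 read each, so that library size alone set them apart in RPKM. A floor of 3 reads corresponded to 0.138 and 0.154 RPKM in the DMSO libraries with none. The read rate per library size was 13.6 times as high with BaP, with an exact 95% interval of 1.98 to 587 that covers counting error only. The log2 difference was 0.27 (SE 0.17).

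At 48 h *CYP650B1* was lower with BaP, at 0.421, 0.557 and 0.433 RPKM against 1.65, 1.45 and 0.973 RPKM with DMSO. The groups lay apart. Behind them stood 15 reads in the BaP group and 60 in the DMSO group. The means were 0.470 ± 0.0751 and 1.36 ± 0.350 RPKM, the log2 difference was -0.67 (SE 0.30), and the ratio of read rates was 0.342 (exact 95% interval 0.18 to 0.61). The adjacent gene *ausH*, needed for the same products and 586 bases away, was also lower at 48 h, at 3.70 ± 0.215 RPKM against 9.67 ± 2.14 RPKM in controls (log2 difference -1.17). A further gene for these products, *ausK*, chosen after its values were seen, was listed at 48 h as well, at 0.221 ± 0.0931 and 0.944 ± 0.0432 RPKM (log2 difference -0.67). Behind *ausK* stood 6 BaP and 34 DMSO reads. *CYP650B1* was 1 of 3 listed genes with this annotation at 48 h, all lower with BaP, as were 773 of all 1529 genes listed then. At 6 h *CYP650B1* was the 1 such gene listed. At 24 h the 1 such gene listed was another P450, *CYP651A1* (*ausI*), at 2.33 ± 0.964 RPKM against 4.77 ± 0.844 RPKM in controls (log2 difference -0.83).

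*ivoC* (AN10573, also CYP682E1, chromosome III, 1431627 to 1433396, minus strand) belongs to the pathway of the brown conidiophore pigment of *A. nidulans*. IvoA, a nonribosomal peptide synthetase, and IvoC act to give N-acetyl-6-hydroxytryptophan, which the phenol oxidase IvoB oxidises to the pigment. At 6 h *ivoC* measured 2.31, 2.50 and 1.06 RPKM with BaP and 0.715, 1.05 and 0.350 RPKM with DMSO. The groups touched, since the lowest BaP library (B18, 1.06 RPKM) and the highest DMSO library (D20, 1.05 RPKM) were almost equal. The means were 1.96 ± 0.783 and 0.704 ± 0.349 RPKM and the log2 difference was 0.78 (SE 0.21), or 1.02 without B18. Behind *ivoC* stood 95 BaP and 43 DMSO reads, with a ratio of read rates of 2.74 (exact 95% interval 1.89 to 4.02). That interval covers counting error only and leaves out the spread between libraries.

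*ivoA* lies 364 bases from *ivoC* on the same strand and was likewise higher with BaP at 6 h. It measured 0.618, 0.878 and 0.462 RPKM with BaP and 0.228, 0.318 and 0.207 RPKM with DMSO, a log2 difference of 0.39 (SE 0.16). In both *ivoC* and *ivoA*, B17 was the highest and B18 the lowest BaP library. *ivoB*, at another locus (AN0231), was listed at 24 h and not at 6 h, and was lower with BaP, at 85.7, 233 and 138 RPKM against 358, 270 and 367 RPKM with DMSO (log2 difference -1.22, SE 0.38). All 3 *ivo* genes were thus listed, at different times and with different signs, and no time held all 3.

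*CYP5080D1* (AN5553, chromosome V, 2430185 to 2431925, plus strand), a putative P450, was higher in BaP-treated cells at 6 and 24 h at levels near 1 RPKM. At 6 h it measured 1.08, 1.17 and 0.904 RPKM with BaP and 0.454, 0.479 and 0.254 RPKM with DMSO, from 51 and 24 reads. At 24 h it measured 0.785, 0.594 and 0.610 RPKM with BaP and 0.297, 0.407 and 0.256 RPKM with DMSO, from 29 and 16 reads. The BaP level was 2.66 times the DMSO level at 6 h and 2.07 times at 24 h. The exact 95% interval of the ratio of read rates at 24 h, 1.12 to 4.19, came close to 1 with counting error alone. On the log2(RPKM + 1) scale the differences were 0.56 (SE 0.16) and 0.33 (SE 0.22). With libraries scaled to a median log2 ratio of 0 they were 0.07 and 0.36. The added 1 compresses a ratio at such levels.

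*CYP630B3P* (AN2191, chromosome VII, 3150071 to 3151604, plus strand) is annotated as a possible pseudogene similar to P450 genes, and RefSeq's table for assembly ASM1142v1 also classes it as a pseudogene. Its transcript was read from polyadenylated RNA at 24 h at 0.960, 0.692 and 0.559 RPKM with BaP and 0.312, 0.426 and 0.161 RPKM with DMSO. Every BaP library was above every DMSO library, with 31 reads in all against 14. The means were 0.737 ± 0.204 and 0.300 ± 0.133 RPKM and the log2 difference was 0.42 (SE 0.23). The ratio of read rates was 2.6 (exact 95% interval 1.34 to 5.28, counting error only). Whether these reads came from a copy elsewhere in the genome cannot be read from the tables.

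*CYP620D1* (AN3394, chromosome VI, 847055 to 848916, plus strand) is annotated as a putative O-methylsterigmatocystin oxidoreductase in a secondary metabolism cluster together with *micA*. It had the lowest level of the genes listed at 24 h among the 8. The BaP libraries held 3, 2 and 2 reads, or 0.176, 0.118 and 0.136 RPKM, and the DMSO libraries 1, 1 and 0 reads, or 0.0532, 0.0606 and 0 RPKM. A floor of 3 reads in the DMSO library with none was 0.138 RPKM, above 2 of the BaP values. The log2 difference was 0.14, smaller than its SE of 0.21. That SE is moderated with a variance pooled over all listed genes and does not give the scatter of these values alone. Leaving out each library in turn gave 0.11 to 0.16. The ratio of read rates was 4.1 with an exact 95% interval of 0.781 to 40.5, which covers counting error only. Even so the interval included 1, and at this depth the size of any difference in *CYP620D1* could not be told.

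**Figure D2:**
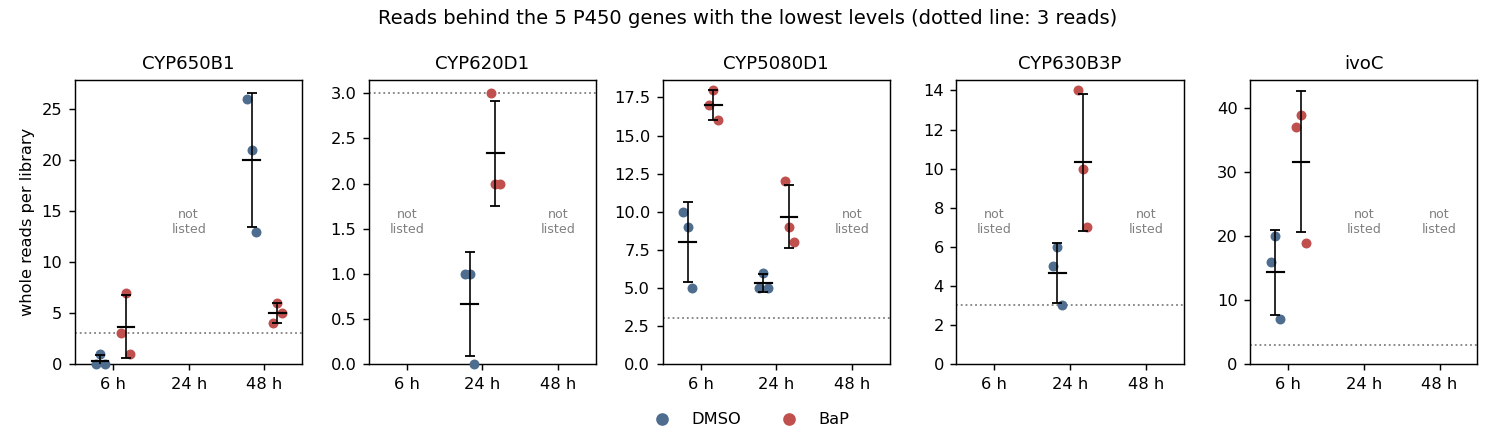
Whole reads per library (vertical axes) for the 5 CYP genes with the lowest levels, with means and SDs of 3 libraries and a dotted line at 3 reads. *CYP620D1* had at most 3 reads in the 6 libraries of 24 h, where it was listed, and *CYP650B1* at most 7 reads in any library at 6 h, while *ivoC* reached 39.

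In their surroundings the CYP genes differed. *CYP5080D1* lay 1031 bases from AN10699, a gene on the same strand with a predicted catalytic domain, which was higher with BaP at both times. AN10699 measured 39.1 ± 6.71 against 11.1 ± 0.659 RPKM in controls at 6 h (log2 difference 1.71), and 226 ± 37.4 against 74.0 ± 61.4 RPKM at 24 h (log2 difference 1.97). Its levels were far above those of *CYP5080D1* itself. On the other side, 1647 bases away, AN12492 was lower at 24 h (log2 difference -0.58).

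*CYP663A1* and AN7400, 1088 bases away on the opposite strand, were both lower at 24 h, AN7400 at 2.41 ± 0.160 RPKM against 8.15 ± 1.40 RPKM in controls (log2 difference -1.41). *CYP687A1* overlapped AN11212, a gene with predicted DNA and zinc binding domains, by 45 bases on the same strand. AN11212 was also lower, at 5.99 ± 1.12 against 12.0 ± 1.41 RPKM at 6 h (log2 difference -0.90) and 1.53 ± 0.886 against 4.55 ± 1.11 RPKM at 24 h (log2 difference -1.17). How reads in the overlap of *CYP687A1* and AN11212 were assigned is not given in the sources used here. On its other side AN11823, 5442 bases from *CYP687A1*, had a log2 difference of 0.26 at 6 h.

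The 3 other CYPs had no listed gene close by. The nearest to *CYP505A8* was AN6832, 10354 bases and 2 genes away, lower at 24 h (log2 difference -0.82). Around *CYP620D1* the nearest were AN3392 at 8546 bases (log2 difference -0.19 at 24 h) and *amyB*, an alpha-amylase gene, at 19418 bases (log2 difference -1.62). No listed gene lay within 20 kb of *CYP630B3P*.

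The tables also list 17 CYP genes that are neither among the 8 nor in the sterigmatocystin cluster, in 23 combinations of gene and time, none at 6 h. All 23 were lower with BaP, as were 755 of all 1503 genes listed at 24 h and 773 of all 1529 at 48 h. By more than 1, 6 of 11 were lower at 24 h, against 32.7% of all listed genes, and 10 of 12 at 48 h, against 43.0%. At 24 h the 11 had a median log2 difference of -1.20 and a range of -2.21 to -0.37, beside 0.24 for the 6 CYPs described. At 48 h the 12 had a median of -1.14 and a range of -1.73 to -0.66. The -0.37 was that of *CYP65T1*, from 6 BaP and 23 DMSO reads. The -0.66 was that of *CYP62C1*, from 2 BaP and 29 DMSO reads. The 8 genes were named with these results known, and they hold each of the 6 CYP genes that were higher with BaP at some time. The contrast in sign between the 8 and the 17 therefore comes from the choice and is not a finding. *CYP663A1* at -1.24 and *CYP687A1* at -1.09 at 24 h, and *CYP650B1* at -0.67 at 48 h, lay within the range of the 17 at the same time.

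**Figure D3:**
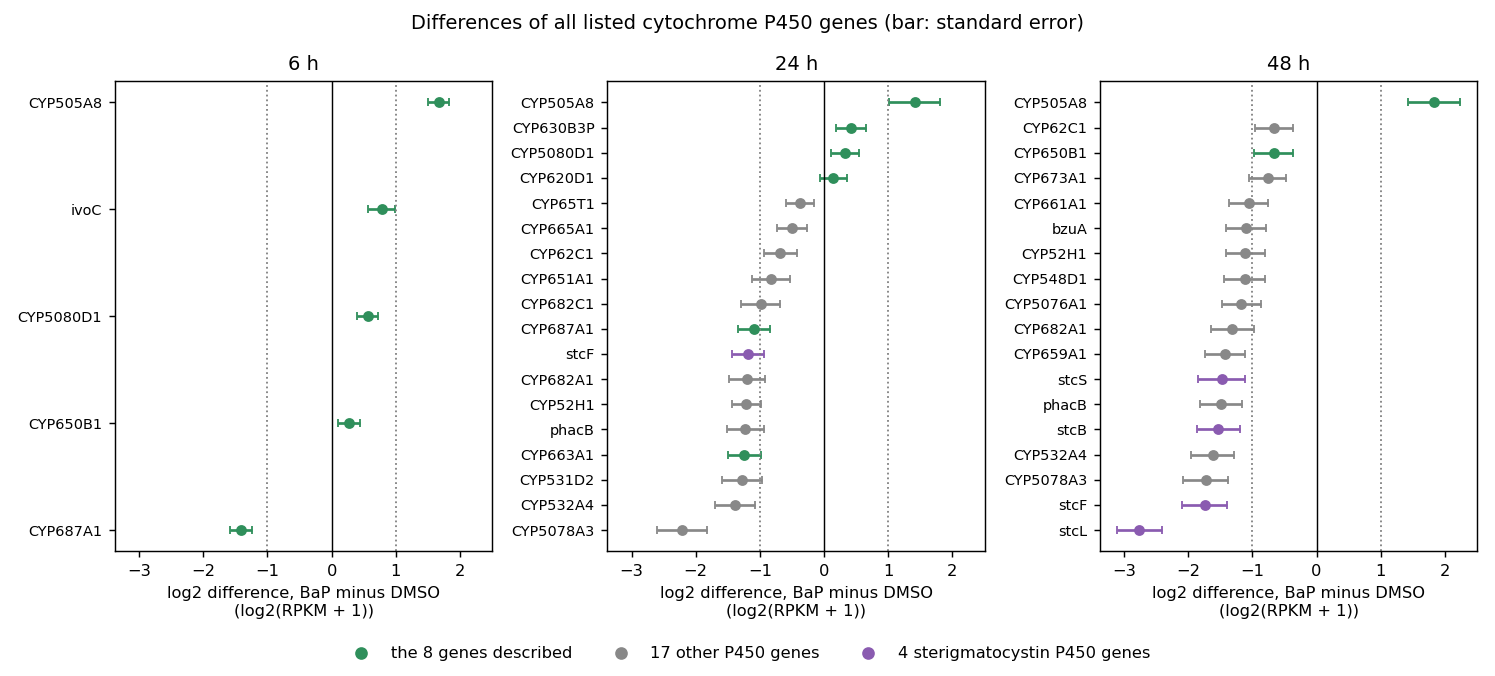
Log2 difference of BaP minus DMSO on the log2(RPKM + 1) scale with its standard error (horizontal axes) for every listed CYP gene at 6, 24 and 48 h, with dotted lines at -1 and 1. *CYP505A8* stood at 1.67, 1.41 and 1.83, to the right of 1 at each time (0.66 at 6 h with libraries scaled to a median log2 ratio of 0), and every one of the 17 other CYP genes and the 4 sterigmatocystin CYP genes lay left of 0.

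Among the 17 were P450s of aromatic acid breakdown. *phacB*, which hydroxylates phenylacetate derivatives, stood at 31.1 ± 3.13 against 76.2 ± 24.6 RPKM in controls at 24 h, and at 19.1 ± 0.886 and 57.8 ± 19.3 RPKM at 48 h. *bzuA*, benzoate para-hydroxylase, stood at 57.5 ± 13.1 and 123 ± 16.9 RPKM at 48 h. The most lowered at 24 h on the log2(RPKM + 1) scale was *CYP5078A3*, at -2.21. By the ratio of read rates *CYP665A1* was lower, at 0.178 beside 0.189, though from 5 BaP and 33 DMSO reads. The remainder, *CYP665A1* included, were *CYP532A4*, *CYP665A1*, *CYP531D2*, *CYP62C1*, *CYP682C1*, *CYP52H1*, *CYP65T1*, *CYP682A1*, *CYP651A1*, *CYP5076A1*, *CYP661A1*, *CYP659A1*, *CYP673A1* and *CYP548D1*. The 4 CYP genes of the sterigmatocystin cluster were lower in 5 of 5 combinations, from -1.19 for *stcF* at 24 h to -2.76 for *stcL* at 48 h, with *stcB* at -1.53 and *stcS* at -1.48 at 48 h. No gene of the P450 electron donors sought by name or description, among them NADPH-cytochrome P450 reductase, was listed at any time.

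The listed genes most like *CYP505A8* across its 18 libraries were *pfkA*, the glycolytic enzyme 6-phosphofructokinase, with Pearson r = 0.989 of log2(RPKM + 1), AN11055 (0.987) and AN10468 (0.975). The median r of *CYP505A8* with all 197 genes listed at those times was already 0.868, and the 18 points share treatment, time and library scale. For *CYP687A1* over 12 libraries they were AN12357 (0.984), AN7368 (0.958) and *furE* (0.953), annotated with homology to a yeast uracil transporter. The median was -0.814 over 373 genes. These genes were all listed for the BaP contrast, in which *CYP687A1* was lower, and the 12 points share treatment, time and library scale. The sign of this median is therefore partly fixed by the selection. For *CYP5080D1* over 12 libraries they were AN0758 (0.938), AN9002 (0.923) and AN3489 (0.915), with a median of 0.481 over 373 genes. For *CYP650B1*, with few reads behind it, they were AN3780 (0.851), AN1602 (0.809) and AN10051 (0.766), with a median of 0.045 over 240 genes. These coefficients are descriptions and carry no test.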

How the data were processed

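Polyadenylated RNA of *A. nidulans* FGSC A4 was sequenced after BaP or DMSO treatment. The submitters' processing notes name FastQC, Subread, featureCounts, limma and Cufflinks without roles or versions. The genome build is not given in the sources used here. The authors deposited 1 table per time, restricted to genes they had called, and its per-library values were taken as RPKM. This unit is unnamed in the tables and was inferred from whole-read steps and gene length. A mean expression deposited on the log2 scale served only to check the recovered reads. Their log2 fold changes, p-values and adjusted p-values were not used. Columns were assigned by name and carry no replicate numbers.

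Whole reads were recovered for 669 of 703, 1486 of 1503 and 1510 of 1529 genes at 6, 24 and 48 h, including all 8 CYPs. Their mean log2 reads per M differed from the authors' mean expression by 1 constant per table (0.145, 0.016 and -0.061), within 0.001 for 661, 1480 and 1500 genes. The recovered sizes may carry the authors' scaling factors. Library sizes were 9.58 to 11.01 (BaP) and 11.69 to 13.71 (DMSO) M reads (M, mega) at 6 h, 8.17 to 9.51 and 9.18 to 12.14 at 24 h, and 5.97 to 7.27 and 8.40 to 9.88 at 48 h.

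Differences were fitted per time with limma 3.58.1 (R 4.3.3) on log2(RPKM + 1) over all listed genes, 3 libraries against 3, without covariates, and a difference over 1 or under -1 was counted. SEs are moderated, so each draws on a variance pooled over all listed genes as well as on the gene's own spread. That spread is between these samples and may be technical. Intervals are exact conditional 95% intervals of the ratio of summed reads per library size. They cover counting error only, leave out the spread between libraries and were not used as tests. The scripts were tested on simulated data. Other steps ran in Python 3.11.15 with scipy 1.17.1, numpy 2.4.6, pandas 2.3.3 and matplotlib 3.10.9.

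The members and lists were chosen with earlier results of these data known. Genes named were the 8 CYPs, every listed gene of the P450-related lists (sterigmatocystin CYPs, other CYPs, electron donors and *ivo* genes), the 3 genes most correlated with each member listed at more than 1 time, and the nearest listed gene on each side within 20 kb. *ausK* fell under none of these rules and was added by its annotation after its values were seen. A further list of loci is not reported here. Alternatives were a pseudocount of 0.1, a filter at 1 RPKM, libraries scaled to a median log2 ratio of 0, limma's voom on recovered reads, and leaving out each library.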

Additional observations from a re-analysis of the deposited data

Results flagged for a closer look

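The direction of *CYP650B1* (*ausG*) differed between times. Its log2 difference of BaP minus DMSO was 0.27 at 6 h and -0.67 at 48 h, so that the later value minus the earlier one was -0.94. The difference between times was not tested, and the 6-h value rests on 11 reads with BaP and 1 read with DMSO. At 6 h a BaP and a DMSO library held 1 read each, and the gene was listed for this contrast at both times.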

How the results depend on the processing

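No paired analysis was possible because the columns carry no replicate numbers. The number of the 8 CYPs with a difference past 1 depended on how low levels were treated. At 6 h it was 2 of 5, and became 5 with a pseudocount of 0.1, 5 with voom and 1 with libraries scaled to a median log2 ratio of 0. At 24 h it was 3 of 6 and became 6 with voom, 4 with a pseudocount of 0.1 and 2 with scaled libraries, when *CYP687A1* was at -0.99. At 48 h it was 1 of 2 and became 2 with a pseudocount of 0.1 and 2 with voom. Leaving out each library gave 2 to 3 at 6 h, 3 throughout at 24 h and 1 throughout at 48 h, the 3 at 6 h without B18, when *ivoC* reached 1.02. No share over all listed genes is given for these alternatives, and the authors' selection used the same fold change limit. The counts therefore show the effect of the processing and nothing particular to the CYPs. All 117 refits of single genes kept their sign. The 78 refits without 1 library could not change sign, since the groups did not overlap, and could not move by 1 SD of the replicates. With a pseudocount of 0.1 the sign was likewise fixed. Moves of less than 1 SD were seen in 8 of 13 refits with scaled libraries. They were seen in 3 of 13 with a pseudocount of 0.1 and 3 of 13 with voom. Scaling by the median moved the median difference of all listed genes by -1.12 at 6 h, 0.02 at 24 h and 0.19 at 48 h, since listed genes at 6 h were mostly higher with BaP. Under it *CYP505A8* at 6 h was 0.66, *ivoC* 0.12, *CYP5080D1* 0.07, *CYP650B1* 0.16 and *CYP687A1* -2.32. *CYP650B1* at 6 h went from 0.27 to 1.35 with a pseudocount of 0.1 and 2.52 with voom, from 11 reads against 1. Few reads limit *CYP620D1*, *CYP650B1*, *CYP630B3P* and *CYP5080D1*. The tables hold genes called on these libraries, so stability here is no independent support.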
